A study of Mus musculus with 12 samples.

Results

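CC chemokines are small secreted proteins, named for a pair of adjacent cysteines, that draw leukocytes into tissue along a concentration gradient. They act through G protein-coupled receptors of the CCR family, and the gut uses them both to recruit inflammatory cells and to place resident lymphocytes and plasma cells along the epithelium. The 10 genes described here are the monocyte attractants Ccl2, Ccl7 and Ccl8, the eosinophil attractant Ccl11, the T cell and macrophage attractants Ccl5, Ccl3 and Ccl4, and the epithelial chemokines Ccl20, Ccl25 and Ccl28. They were taken by name, from probe sets that the platform annotation gives exactly 1 symbol, and a gene with several probe sets would have been represented by its brightest. All 10 were found, each with 1 probe set, among the 22180 genes measured.

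Expression was read from whole colon tissue of mice of 4 genotypes, with 1 Affymetrix whole-transcript array per sample, 3 arrays per genotype and 300 ng of total RNA per array. The genotypes were the double knockout (DKO, IL10-/- STING-/-), the interleukin-10 knockout (IL10KO, IL10-/- STING+/+), the STING knockout (SKO, IL10+/+ STING-/-) and the wild type (WT, IL10+/+ STING+/+). DKO and IL10KO thus share the loss of interleukin-10, and DKO and SKO share the loss of STING. The labels name no treatment, and the sources used here give no age, strain background, stretch of colon or pooling of animals. Interleukin-10 holds macrophages and T cells of the gut in check, and colitis that arises in its absence is a standard mouse model. STING, the product of Sting1, relays the sensing of cytosolic DNA to interferon and NF-kappaB target genes, several CC chemokines among them. Values are log2 signals as deposited, so a difference of 1 is a doubling of signal, and they were tested with limma over all 12 arrays with Benjamini-Hochberg adjustment over all 22180 genes and a threshold of 0.05. Nothing in the labels states that each sample was a different animal, and a p-value therefore measures only the spread among these samples.

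Array medians lay between 4.80 and 5.02, and precision is limited by having 3 arrays per genotype. Sting1 had signals of 4.23, 4.13 and 4.34 in DKO, 6.87, 8.09 and 7.33 in IL10KO, 4.40, 4.32 and 4.28 in SKO, and 7.51, 6.40 and 4.56 in WT. The library labelled WT replicate 3 thus lay near the knockouts for Sting1. Of its correlations over the 22180 genes the closest was with SKO replicate 1, at r = 0.9967, which no other of the 66 pairs reached. The members' values that rest on WT are therefore also given without it. Il10 averaged 4.47 ± 0.13 in DKO, 4.98 ± 0.45 in IL10KO, 3.72 ± 0.09 in SKO and 3.68 ± 0.11 in WT (SD, n = 3 each), and whether its probe set lies in the deleted stretch is not known here, so it does not check the labels. The mean signal of 10 colon epithelial markers was 11.05 to 11.19 in DKO, 10.44 to 10.69 in IL10KO, 10.92 to 11.08 in SKO and 10.96 to 11.11 in WT. Markers of other tissues were high in some libraries. The mean of 9 pancreatic acinar markers was 9.27 and 11.94 in WT replicates 1 and 2, against 5.02 to 6.22 in the other arrays, and that of 11 stratified squamous markers was 7.25 and 7.50 in IL10KO replicates 2 and 3, against 4.22 to 5.37 in the others. Values without the library labelled WT replicate 3 thus take WT from replicates 1 and 2 alone, the arrays with high acinar signal. In IL10KO against WT all 9 acinar markers were then called lower, and 5 were with that library kept. IL10KO replicate 1 and SKO replicate 2 stood apart within their genotypes over all genes.

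In IL10KO colon against WT, 3 of the 10 chemokines rose and none fell: Ccl5, Ccl2 and Ccl7. In DKO colon against IL10KO, where STING was lost as well, Ccl2, Ccl11 and Ccl7 fell and Ccl28 rose. Among all genes, 3.12% were called higher and 5.01% lower in IL10KO against WT, and 3.34% higher and 2.45% lower in DKO against IL10KO. Both comparisons use the same 3 IL10KO arrays, so their values are set side by side and their opposite signs are not independent of each other. Since the tissue was whole colon, fewer cells of a type and less RNA per cell cannot be told apart. The count of risen genes in IL10KO against WT was 1 without the library labelled WT replicate 3 (Ccl11 alone), 1 without IL10KO replicate 3 (Ccl2 alone) and 0 without WT replicate 2, where the shares of all genes called were 4.0%, 4.97% and 3.53%. The count of changed genes in DKO against IL10KO was 0 without DKO replicate 1 or DKO replicate 2, 1 without IL10KO replicate 2 (Ccl28 alone), and 2 without IL10KO replicate 3 (Ccl28 and Ccl3) or SKO replicate 3 (Ccl2 and Ccl28). The shares of all genes called in these refits are not given here. These counts therefore do not show whether the chemokines lost calls beyond a loss among all genes.

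**Figure D1:**
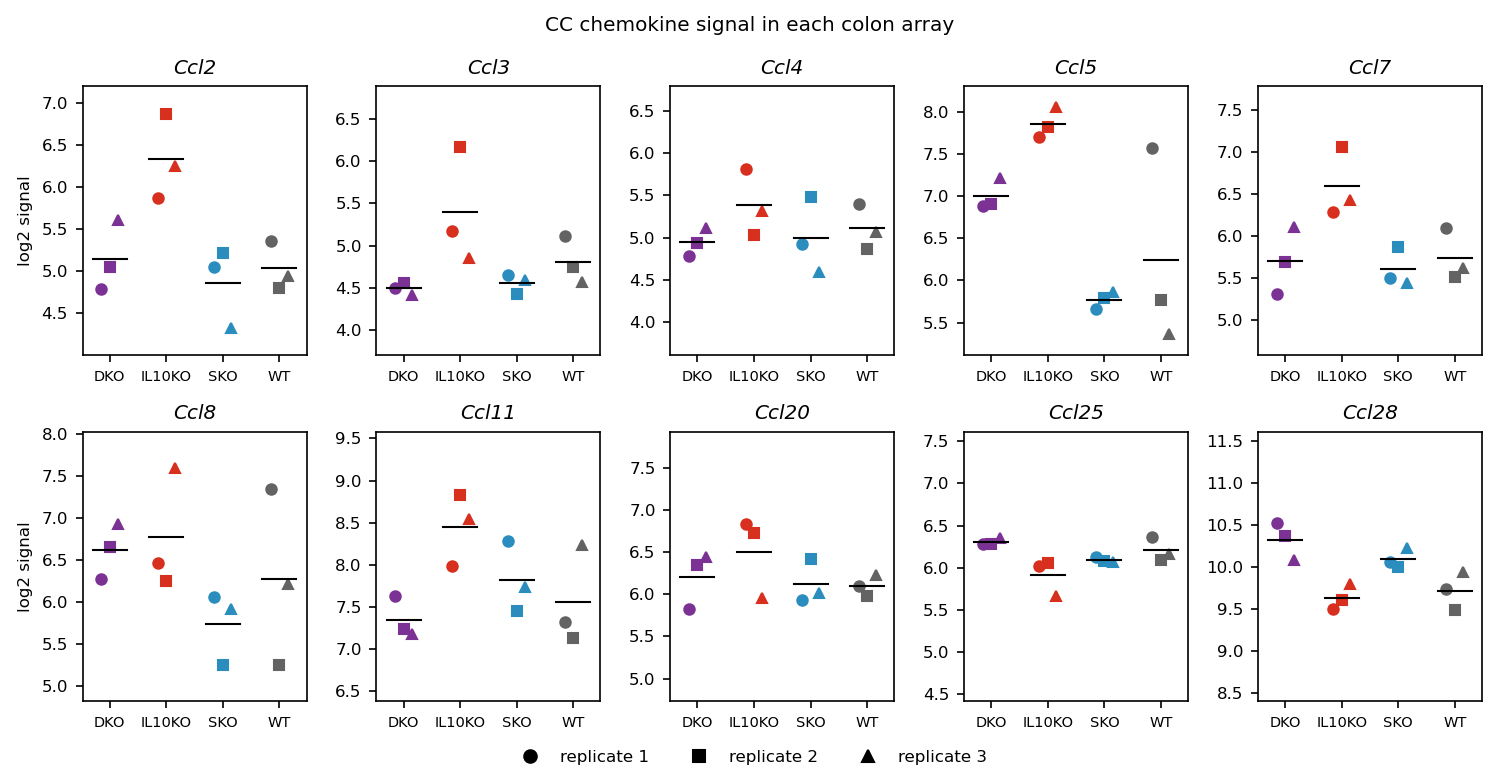
Log2 signal (vertical axes) of each of the 10 CC chemokines in every array, grouped by genotype (DKO, IL10KO, SKO and WT from left to right, 3 arrays each), with a circle, square and triangle for replicates 1, 2 and 3 and a line at the genotype's mean. The 3 IL10KO points of Ccl2 lie between 5.87 and 6.87, above all 9 others, while those of Ccl28 lie below all 3 DKO points.

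Ccl2, also called MCP-1, is the principal ligand of Ccr2 and calls inflammatory monocytes out of the blood. Its log2 signal was 4.79, 5.05 and 5.61 in DKO, 5.87, 6.87 and 6.25 in IL10KO, 5.05, 5.22 and 4.33 in SKO and 5.36, 4.80 and 4.95 in WT. Each IL10KO array exceeded each array of the other genotypes, and the other 3 genotypes overlapped. Ccl2 rose by 1.29 ± 0.29 (SE) in IL10KO against WT, a 2.45-fold difference (limma adjusted p = 0.0164), and fell by 1.18 ± 0.29 in DKO against IL10KO, a 2.26-fold difference (limma adjusted p = 0.0308). The rise no longer passed without WT replicate 2 (1.18, limma adjusted p = 0.0700), and likewise not without the library labelled WT replicate 3 (1.25, limma adjusted p = 0.0553). The fall no longer passed without any 1 of IL10KO replicate 2 (-0.91), IL10KO replicate 3, DKO replicate 1 or DKO replicate 2, with limma adjusted p up to 0.139, or with only the genotypes compared in the fit (limma adjusted p = 0.0634).

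Ccl7 (MCP-3), another Ccr2 ligand, lies next to Ccl2 on chromosome 11. Ccl7 gave log2 signals of 5.31, 5.69 and 6.10 in DKO, 6.29, 7.05 and 6.43 in IL10KO, 5.50, 5.86 and 5.44 in SKO and 6.09, 5.51 and 5.62 in WT. As for Ccl2, IL10KO replicate 2 was the highest array and no IL10KO array overlapped another genotype. Ccl7 rose by 0.85 ± 0.24 in IL10KO against WT (limma adjusted p = 0.0456) and fell by 0.89 ± 0.24 in DKO against IL10KO (limma adjusted p = 0.0461). Both lay close to the threshold. The rise no longer passed without any 1 of 7 arrays (IL10KO replicates 2 and 3, DKO replicate 2, WT replicate 2, the library labelled WT replicate 3, SKO replicates 1 and 3), with limma adjusted p up to 0.151. It also did not pass with median centring (0.78, limma adjusted p = 0.0667) or with only the genotypes compared (0.0844). Nor did it pass with 3 arrays left out together (0.94, limma adjusted p = 0.0966). These were SKO replicate 2, IL10KO replicate 1 and the library labelled WT replicate 3, which did not itself stand apart over all genes. The fall no longer passed without any 1 of those 7 or DKO replicate 1, with limma adjusted p up to 0.190, nor with median centring (0.0693), array weights (0.0631) or only the genotypes compared (0.101).

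Ccl8 (MCP-2) acts through Ccr8 in the mouse and is made largely by tissue macrophages. Ccl8 gave log2 signals of 6.28, 6.66 and 6.93 in DKO, 6.47, 6.25 and 7.60 in IL10KO, 6.06, 5.25 and 5.92 in SKO and 7.35, 5.25 and 6.22 in WT. The spread within WT, from 5.25 to 7.35, was wider than any difference between genotype means. It did not pass in IL10KO against WT (0.50, 95% confidence interval -0.46 to 1.46) or in DKO against IL10KO (-0.15, -1.11 to 0.81). All 3 DKO arrays lay above all 3 SKO arrays, with a difference of 0.88 (interval -0.08 to 1.84) that did not pass either (limma adjusted p = 0.998). Of the members on chromosome 11, Ccl8 and Ccl3 have an entry in the RefSeq promoter table (build GRCm38.p6). The 250 bases before the start of Ccl8 (chr11:82114935-82115184, plus strand) are shown because Ccl8 lies in one run of genes with Ccl2, Ccl7 and Ccl11, and its TATA box (TATAAA, searched on both strands), in capitals, begins 32 bases before the start. That motif is found in 12.4% of the 32851 promoter windows of the table, and a match of letters is not evidence of use.
Ccl8: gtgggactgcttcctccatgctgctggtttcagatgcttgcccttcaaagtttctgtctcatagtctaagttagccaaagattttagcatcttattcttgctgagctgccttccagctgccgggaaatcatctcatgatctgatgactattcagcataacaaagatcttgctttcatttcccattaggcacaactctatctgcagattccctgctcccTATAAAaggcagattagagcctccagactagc

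Ccl11 (eotaxin-1) recruits eosinophils through Ccr3 and is made by fibroblasts, smooth muscle and macrophages of the gut wall. Ccl11 gave log2 signals of 7.63, 7.23 and 7.18 in DKO, 7.98, 8.83 and 8.55 in IL10KO, 8.28, 7.45 and 7.73 in SKO and 7.32, 7.13 and 8.23 in WT. The high WT array, at 8.23, was the library labelled WT replicate 3, and the high SKO array, at 8.28, was SKO replicate 1. Ccl11 fell by 1.11 ± 0.30 in DKO against IL10KO, with no overlap of arrays (limma adjusted p = 0.0442). Against WT, the IL10KO signal differed by 0.89 ± 0.30 and did not pass (limma adjusted p = 0.0779). Without the library labelled WT replicate 3 that difference was 1.23 and passed (limma adjusted p = 0.0247), as it did after quantile normalization (1.06, limma adjusted p = 0.0270). The fall in DKO no longer passed without any 1 of IL10KO replicates 2 and 3, DKO replicates 1, 2 and 3, WT replicate 1 or SKO replicate 3, with values from -1.34 to -0.92 over all single omissions and limma adjusted p up to 0.140, nor with median centring (-1.02, 0.0780) or array weights (-1.22, 0.0569). Of 6 eosinophil markers, including the granule protein genes Epx and Prg2, none passed in IL10KO against WT (median 0.19) or in DKO against IL10KO (median -0.25). Their mean signal was 4.26 to 4.43 in DKO, 4.47 to 4.79 in IL10KO, 4.38 to 4.61 in SKO and 4.49 to 4.53 in WT, and its part in the fall of Ccl11 was not tested.

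Ccl5 (RANTES), made by activated T cells, natural killer cells and epithelium, attracts T cells, macrophages and eosinophils, with Ccr1 and Ccr3 among its receptors. Its log2 signal was 6.88, 6.91 and 7.22 in DKO, 7.70, 7.83 and 8.05 in IL10KO, 5.66, 5.79 and 5.86 in SKO and 7.58, 5.77 and 5.37 in WT. IL10KO, DKO and SKO formed 3 separate tiers in that order, whereas WT reached from below the SKO arrays to between the DKO and IL10KO arrays, WT replicate 1 being the high one at 7.58. Ccl5 rose by 1.62 ± 0.39 in IL10KO against WT, a 3.08-fold difference (limma adjusted p = 0.0244). That call ended without IL10KO replicate 3 (1.53, limma adjusted p = 0.0754), WT replicate 2 (1.39, 0.0976) or the library labelled WT replicate 3 (1.186, 0.0897). It also ended with only the genotypes compared (1.62, limma adjusted p = 0.0991), with array weights (1.68, 0.0612) and with the 3 arrays named for Ccl7 left out together (1.27, 0.132). Without WT replicate 1 the rise was 2.29 (limma adjusted p = 4.03e-05). The difference between DKO and IL10KO, -0.86 ± 0.39, did not pass (limma adjusted p = 0.199), nor did that between DKO and SKO, 1.23 with an interval of 0.38 to 2.08 (limma adjusted p = 0.798). With WT replicate 1 left out, which takes its wide spread out of the shared error, both passed, at -0.86 (limma adjusted p = 0.00987) and 1.23 (limma adjusted p = 0.00909), as they did with only the genotypes compared (limma adjusted p = 0.0329 and 0.00915).

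T cell markers are given beside Ccl5. Of 9 measured, Cd3g (1.39), Cd3d (0.76) and Thy1 (0.63) rose in IL10KO against WT, 6 did not pass, and none passed in DKO against IL10KO (median -0.53). Their mean signal was 5.48 to 5.50 in DKO, 5.95 to 6.17 in IL10KO, 5.16 to 5.43 in SKO and 5.09 to 6.01 in WT, the highest WT value being again that of WT replicate 1. Thy1 (0.74) alone of the 9 rose in IL10KO when the library labelled WT replicate 3 was left out. WT replicate 1 also had the highest mean of 8 B cell and follicle markers, 7.03, against 5.31 to 6.48 in the other arrays. The part of either cell type in the Ccl5 values was not tested.

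Ccl3 and Ccl4 (MIP-1 alpha and beta) are made by activated macrophages, neutrophils and T cells. Ccl3 had log2 signals of 4.50, 4.56 and 4.42 in DKO, 5.17, 6.17 and 4.85 in IL10KO, 4.65, 4.43 and 4.59 in SKO and 5.12, 4.75 and 4.56 in WT. All 3 DKO arrays lay below all 3 IL10KO arrays, but the difference of -0.91 ± 0.26 narrowly missed the threshold (limma adjusted p = 0.0559), and without IL10KO replicate 3 it passed (-1.18, limma adjusted p = 0.0220). It also passed without the dimmest genes (limma adjusted p = 0.0466) and under a trended, robust prior (0.0474). In IL10KO against WT it was 0.59 ± 0.26 (limma adjusted p = 0.167). Ccl4 read 4.78 to 5.12 in DKO, 5.03 to 5.81 in IL10KO, 4.59 to 5.48 in SKO and 4.87 to 5.40 in WT. All 4 genotypes overlapped for Ccl4, and its differences were 0.27 in IL10KO against WT and -0.44 in DKO against IL10KO, neither past the threshold.

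None of the 3 epithelial chemokines passed in IL10KO against WT, and 1 of them, Ccl28, rose in DKO against IL10KO. Ccl28, also called MEC, is made by colonic epithelium and draws IgA plasma cells through Ccr10. Ccl28 gave log2 signals of 10.53, 10.36 and 10.08 in DKO, 9.50, 9.61 and 9.80 in IL10KO, 10.06, 10.01 and 10.22 in SKO and 9.74, 9.49 and 9.94 in WT. All 6 arrays of the STING-deficient genotypes lay above all 6 arrays labelled with intact STING, the nearest being SKO replicate 2 at 10.01 and, at 9.94, the library labelled WT replicate 3. The share of all genes that separate in this way is not given here, so the separation only describes these values. Ccl28 rose by 0.69 ± 0.16 in DKO against IL10KO, a 1.61-fold difference (limma adjusted p = 0.0227), a call that ended without IL10KO replicate 1 (0.62, limma adjusted p = 0.0650), DKO replicate 1 (0.59, 0.108) or DKO replicate 2 (0.67, 0.0839). It also ended with only the genotypes compared (0.69, limma adjusted p = 0.0681), with array weights (0.64, 0.0516) and with the 3 arrays named for Ccl7 left out together (0.62, 0.0569). In SKO against WT the difference was 0.38 with an interval of 0.04 to 0.71 and did not pass (limma adjusted p = 1), and it was 0.48 without the library labelled WT replicate 3 (limma adjusted p = 0.959). In IL10KO against WT it was -0.08, and 0.02 without the library labelled WT replicate 3. Ccl28 is the one changed member with an entry in the promoter table, and the 250 bases before its start (chr13:119623569-119623818, plus strand, GRCm38.p6) hold none of the motifs searched.
Ccl28: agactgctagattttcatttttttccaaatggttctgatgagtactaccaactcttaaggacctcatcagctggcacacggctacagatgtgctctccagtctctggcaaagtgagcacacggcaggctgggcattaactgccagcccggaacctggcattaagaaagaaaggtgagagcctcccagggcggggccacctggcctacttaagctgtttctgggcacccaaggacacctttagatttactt

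Ccl20 (MIP-3 alpha), the ligand of Ccr6, is made by the epithelium over lymphoid follicles and is induced by NF-kappaB. Its log2 signal was 5.83, 6.35 and 6.44 in DKO, 6.83, 6.72 and 5.96 in IL10KO, 5.93, 6.42 and 6.02 in SKO and 6.10, 5.98 and 6.23 in WT. IL10KO replicates 1 and 2 were the highest of the 12 arrays, while IL10KO replicate 3 lay just below the 3 WT arrays. Neither the difference of IL10KO from WT (0.40, interval -0.09 to 0.90) nor that of DKO from IL10KO (-0.30, interval -0.79 to 0.19) passed. The promoter is shown for its match to the NF-kappaB consensus, in capitals, which begins 80 bases before the start (chr1:83116516-83116765, plus strand, GRCm38.p6) and occurs in 5.0% of the promoter windows on either strand. Ccl20 was the only one of the 5 members with an entry whose window held that match, and none held the core of the interferon-stimulated response element, found in 3.0% of windows.
Ccl20: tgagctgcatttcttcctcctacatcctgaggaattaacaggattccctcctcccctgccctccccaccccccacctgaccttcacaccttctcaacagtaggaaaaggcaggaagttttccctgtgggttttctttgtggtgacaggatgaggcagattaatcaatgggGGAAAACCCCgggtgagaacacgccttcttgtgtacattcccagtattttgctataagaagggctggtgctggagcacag

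Ccl25 (TECK), the ligand of Ccr9, guides lymphocytes chiefly to the small intestine. It read 6.28, 6.28 and 6.35 in DKO, 6.02, 6.06 and 5.66 in IL10KO, 6.13, 6.08 and 6.06 in SKO and 6.37, 6.09 and 6.16 in WT. The range over all 12 arrays, 0.70, was the narrowest of the members. All IL10KO arrays lay below all DKO and all WT arrays, by 0.39 and 0.29 on average, but neither difference passed (limma adjusted p = 0.102 in DKO against IL10KO and 0.188 in IL10KO against WT).

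Colon epithelial markers are given beside Ccl28. Of 10 colon epithelial markers, the transporters and enzymes Car1 (-1.62), Aqp8 (-1.26) and Slc26a3 (-0.96) fell in IL10KO against WT, and Aqp8 (1.53), Car1 (1.44) and Slc26a3 (1.01) rose in DKO against IL10KO. All 3 also fell in IL10KO without the library labelled WT replicate 3. The mean signal of the list, given above, was lower in all IL10KO arrays than in all others. Among 7 plasma cell markers, the cells that Ccl28 attracts, Mzb1 (0.94) and Prdm1 (0.82) rose in IL10KO against WT, with or without the library labelled WT replicate 3, and none passed in DKO against IL10KO (median -0.30). The part of epithelial or plasma cell content in the Ccl28 values was not tested.

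**Figure D2:**
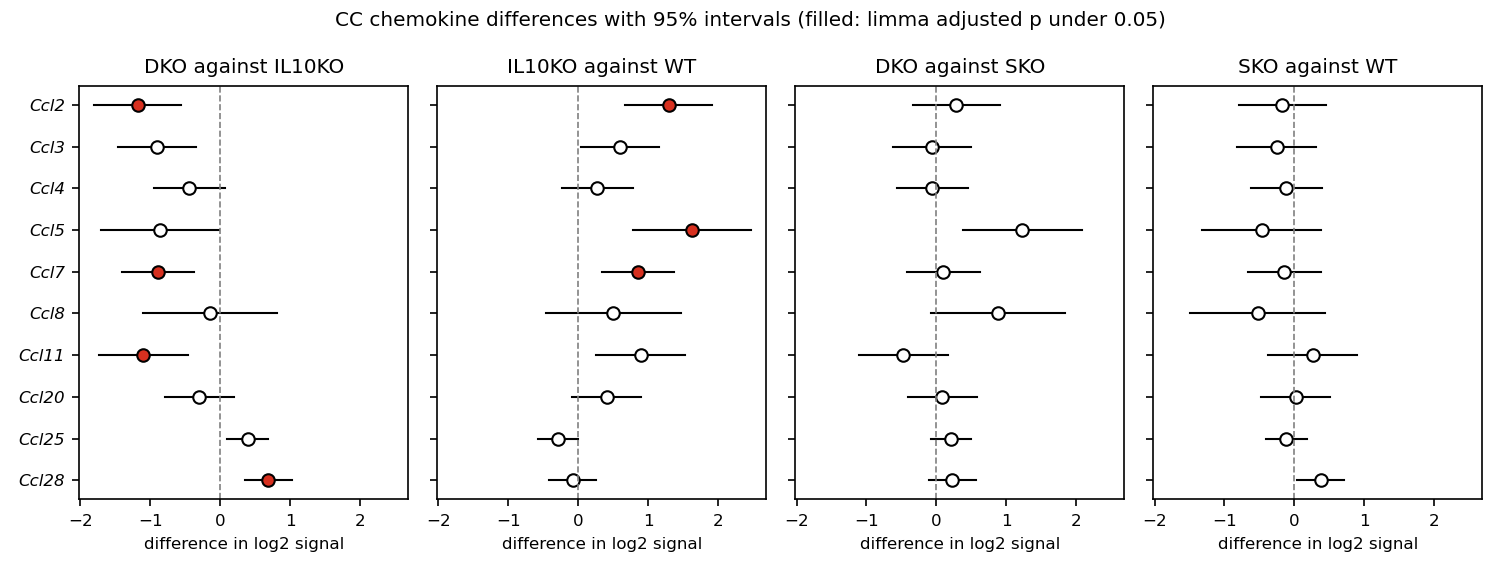
Difference in log2 signal with its 95% confidence interval for each CC chemokine in 4 comparisons (DKO against IL10KO, IL10KO against WT, DKO against SKO and SKO against WT), with filled symbols for those past a limma adjusted p of 0.05. Ccl2 and Ccl7 are filled in the first 2 panels, with -1.18 and -0.89 in DKO against IL10KO and 1.29 and 0.85 in IL10KO against WT, and no symbol is filled in the panels of DKO against SKO and SKO against WT.

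Taken by groups of arrays that do not overlap, 3 of the 10 members were higher in IL10KO than in WT (Ccl2, Ccl5 and Ccl7) and 1 was lower (Ccl25), where 14% and 16% of all genes were. In DKO against IL10KO, Ccl25 and Ccl28 were higher and Ccl2, Ccl3, Ccl5, Ccl7 and Ccl11 lower without overlap, where 13.4% of all genes were higher and 13.8% lower. The median difference of the 10 members was 0.55 in IL10KO against WT and -0.65 in DKO against IL10KO, beside 0.03 and -0.04 for all genes. At an unadjusted p under 0.05 there were 6 members in IL10KO against WT, where 26.2% of all genes were, and 7 in DKO against IL10KO, where 24.4% were. Without the library labelled WT replicate 3, Ccl2, Ccl5, Ccl7 and Ccl11 were higher in IL10KO than in WT without overlap and Ccl25 was lower, where 18.3% and 19.5% of all genes were. The members' median difference of IL10KO from WT was then 0.47. Among members that passed neither with nor without that library, the difference of IL10KO from WT without it was 0.47 for Ccl3, 0.25 for Ccl4, 0.47 for Ccl8, 0.47 for Ccl20 and -0.31 for Ccl25.

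The other comparisons ask what changes with loss of interleukin-10 where STING is absent, and with loss of STING where interleukin-10 is present. In DKO against SKO, limma called none of the 10 members and 0.0451% of all genes, and 1 member, Ccl5, had an unadjusted p under 0.05, where 4.77% of all genes had. Ccl5, Ccl8 and Ccl25 were higher in DKO than in SKO without overlap of arrays, where 4.87% of all genes were. The median difference of the members was 0.16, beside -0.03 for all genes. In SKO against WT, limma called no member and 0% of all genes, and 1 member, Ccl28, had an unadjusted p under 0.05, where 2.05% of all genes had. It was also the 1 member higher without overlap, where 3.75% of all genes were. The median difference was -0.13, beside 0.01 for all genes. No member passed without the library labelled WT replicate 3 either, the members' median was -0.17, and Ccl11 and Ccl28 were higher and Ccl3 lower in SKO without overlap, where 9.96% and 8.19% of all genes were.

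Whether the effect of losing interleukin-10 differed with STING was tested as the difference of effects, DKO minus SKO less IL10KO minus WT. Limma called none of the 10 members and 0.645% of all genes, and 4 members had an unadjusted p under 0.05, where 15.7% of all genes had. They were Ccl11 at -1.37 (interval -2.27 to -0.47, limma adjusted p = 0.170), Ccl2 at -1.01 (-1.89 to -0.13, 0.268), Ccl7 at -0.75 (-1.48 to -0.02, 0.310) and Ccl25 at 0.50 (0.09 to 0.92, 0.246). Leaving out the library labelled WT replicate 3 gave -1.70 for Ccl11 (limma adjusted p = 0.0535), -0.96 for Ccl2 (0.372), -0.68 for Ccl7 (0.433) and 0.53 for Ccl25 (0.321). For Ccl5 the difference of effects was -0.39 with an interval of -1.59 to 0.81, and 0.04 without the library labelled WT replicate 3. With that library, IL10KO replicate 1 and SKO replicate 2 left out together, Ccl11 passed at -2.13 (limma adjusted p = 0.00722). That choice was made after seeing the data. For Ccl11 these were the highest WT, the lowest IL10KO and the lowest SKO array, so leaving them out could only make its value more negative. The share of all genes called in the difference of effects without them is not given here. Without those 3 arrays, 2 members rose in IL10KO against WT (Ccl2 and Ccl11) and 3 fell in DKO against IL10KO (Ccl2, Ccl7 and Ccl11), where 4.57% and 4.98% of all genes were called in either direction.

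The receptors of these chemokines were read from 10 of 11 CC receptor genes. Only Ccr1, a receptor for Ccl3, Ccl5 and Ccl7 on monocytes and neutrophils, passed in either comparison. Its log2 signal was 4.81, 4.78 and 4.56 in DKO, 5.17, 6.0 and 5.52 in IL10KO, 4.37, 4.48 and 4.41 in SKO and 5.15, 4.60 and 4.77 in WT. It rose by 0.72 ± 0.20 in IL10KO against WT (limma adjusted p = 0.0380) and fell by 0.84 ± 0.20 in DKO against IL10KO (limma adjusted p = 0.0242). Without the library labelled WT replicate 3 the difference of IL10KO from WT was 0.69 and did not pass (limma adjusted p = 0.113). Ccr2, the receptor of Ccl2 and Ccl7, differed by 0.59 (limma adjusted p = 0.126) and -0.48 (0.216) in those comparisons. Ccr3, for Ccl11 and Ccl5, differed by -0.10 and -0.28, Ccr6, for Ccl20, by -0.08 and 0.08, Ccr9, for Ccl25, by 0.38 and -0.31, and Ccr10, for Ccl28, by 0.37 and -0.32, none past the threshold. Of 4 atypical receptors that bind or clear CC chemokines none passed (medians 0.31 and -0.32).

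Among 9 other CC chemokines measured of 13 listed, 1 rose and 1 fell in IL10KO against WT, and none passed in DKO against IL10KO. Ccl9, a macrophage attractant, rose by 0.91 ± 0.23 (limma adjusted p = 0.0297), and Ccl27a, known from skin as a Ccr10 ligand, fell by 0.50 ± 0.12 (limma adjusted p = 0.0234). Ccl27a read 5.15, 5.21 and 5.33 in IL10KO and 5.71, 5.72 and 5.75 in WT, without overlap. Without the library labelled WT replicate 3, Ccl9 still rose (1.11, limma adjusted p = 0.0237) and Ccl27a did not pass (-0.48, limma adjusted p = 0.0808).

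Of 10 cytokines known to induce CC chemokines, 4 rose in IL10KO against WT and the same 4 fell in DKO against IL10KO. Il1b, Il1a, Il6 and Tnf rose by 3.46, 1.88, 1.39 and 1.25, and fell by 3.49, 1.83, 1.38 and 0.80. All 4 rises also passed without the library labelled WT replicate 3. Il1a alone of the 10 passed in the difference of effects (-1.80 ± 0.33, limma adjusted p = 0.0268). None of 9 NF-kappaB feedback genes, such as Nfkbia and Tnfaip3, passed in either comparison (medians 0.02 and 0.06).

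Myeloid markers were set beside Ccl2 and Ccl7. Of 10 neutrophil markers 9 rose in IL10KO against WT (median 2.13) and 9 fell in DKO against IL10KO (median -1.95), led by S100a8, a calprotectin subunit (4.41 and -4.07), and Retnlg (3.83 and -4.18). Their mean signal was 3.88 to 4.07 in DKO, 5.49 to 7.21 in IL10KO, 3.92 to 3.97 in SKO and 3.87 to 3.93 in WT, and within IL10KO it was highest in replicate 2, as Ccl2, Ccl7 and Ccl11 were. Of 13 monocyte and macrophage markers, Fcgr1 (1.11), Itgam (1.10) and C1qa (0.68) rose in IL10KO against WT, and Fcgr1 fell by 1.07 in DKO against IL10KO. The medians of the 13 were 0.575 and -0.43. In IL10KO against WT 2 of them had a negative difference, and in DKO against IL10KO 3 had a positive one. The monocyte gene Ly6c2 was among both, at means of 7.84 in DKO, 7.14 in IL10KO and 7.32 in WT, and did not pass. The mean signal of the 13 was 7.16 to 7.44 in DKO, 7.12 to 7.83 in IL10KO, 6.88 to 7.30 in SKO and 6.66 to 7.42 in WT, so that all 4 genotypes overlapped. Among 9 fibroblast markers Col1a1 (0.83) and Pdpn (0.77) rose in IL10KO against WT and Pdpn fell by 0.80 in DKO against IL10KO. The fibroblast medians were 0.30 and -0.23, with 7 differences positive and 2 negative in IL10KO against WT, and 2 positive and 7 negative in DKO against IL10KO. Among 9 smooth muscle markers 7 were called lower in IL10KO against WT and 7 higher in DKO against IL10KO (medians -0.79 and 0.81). Without the library labelled WT replicate 3, IL10KO against WT had 9 neutrophil markers, 2 monocyte and macrophage markers (Fcgr1 and Itgam) and 1 fibroblast marker (Pdpn) risen, and 6 smooth muscle markers fallen. The squamous marker means given above were also highest in IL10KO replicates 2 and 3. The part of these cell types in the chemokine values was not tested.

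**Figure D3:**
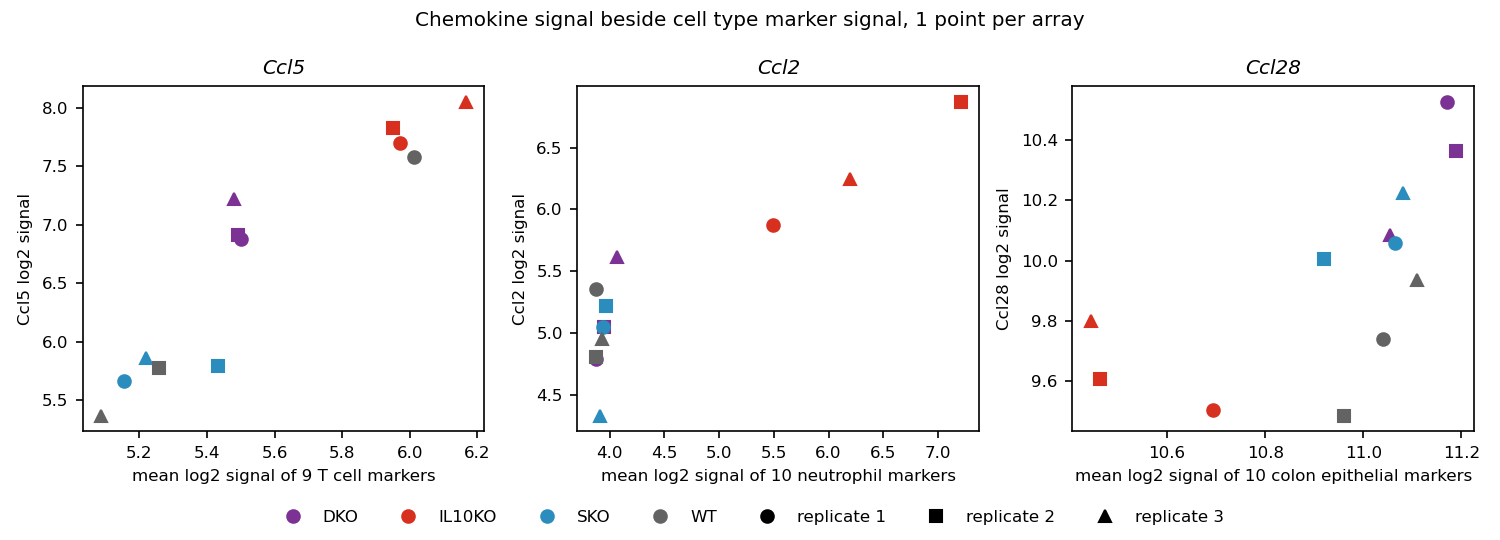
Each panel sets the log2 signal of a chemokine (vertical axis) against the mean log2 signal of a marker list (horizontal axis) in the 12 arrays, with Ccl5 beside 9 T cell markers, Ccl2 beside 10 neutrophil markers and Ccl28 beside 10 colon epithelial markers. WT replicate 1 lies among the IL10KO arrays for T cell markers (6.01) and just below them for Ccl5 (7.58), and the IL10KO arrays alone have a neutrophil marker mean above 5.

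The genes whose profile over the 12 arrays lay closest to a member were sought for the 3 members with a range above 2 (Ccl5 2.69, Ccl2 2.54 and Ccl8 2.34), by the root mean square difference of log2 signals centred on each gene's mean, among 17007 named genes. Closest to Ccl2 were Cxcl1 (0.222), a neutrophil-attracting CXC chemokine, Ccl7 (0.243) and Tarm1 (0.277), against a spread of Ccl2 about its own mean of 0.675. Closest to Ccl5 were the T cell receptor component Cd3g (0.264), the immunoproteasome subunit Psmb8 (0.366) and Ifi205 (0.373), against 0.934. Closest to Ccl8 were Ly86 (0.327), Ms4a7 (0.360), a macrophage gene, and Mndal (0.380), against 0.689. Over so few arrays these are descriptions of likeness.

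The 7 members on chromosome 11 lie in 2 runs of neighbouring CC chemokine genes, in RefSeq's order of protein-coding genes (GRCm38.p6). In order along the chromosome the first holds Ccl2, Ccl7, Ccl11, Ccl12, Ccl8 and Ccl1, and the second holds Ccl5, Ccl9, Ccl6, Ccl3 and Ccl4. The called genes of the first run, Ccl2, Ccl7 and Ccl11, are immediate neighbours, while Ccl12 (0.12 in IL10KO against WT and 0.44 in DKO against IL10KO) and Ccl8 (0.50 and -0.15), farther along, did not pass. In the second run Ccl5 and Ccl9 rose in IL10KO against WT, while Ccl6 had the opposite signs, at -0.58 (limma adjusted p = 0.131) and 0.72 (limma adjusted p = 0.0803), without passing.

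**Figure D4:**
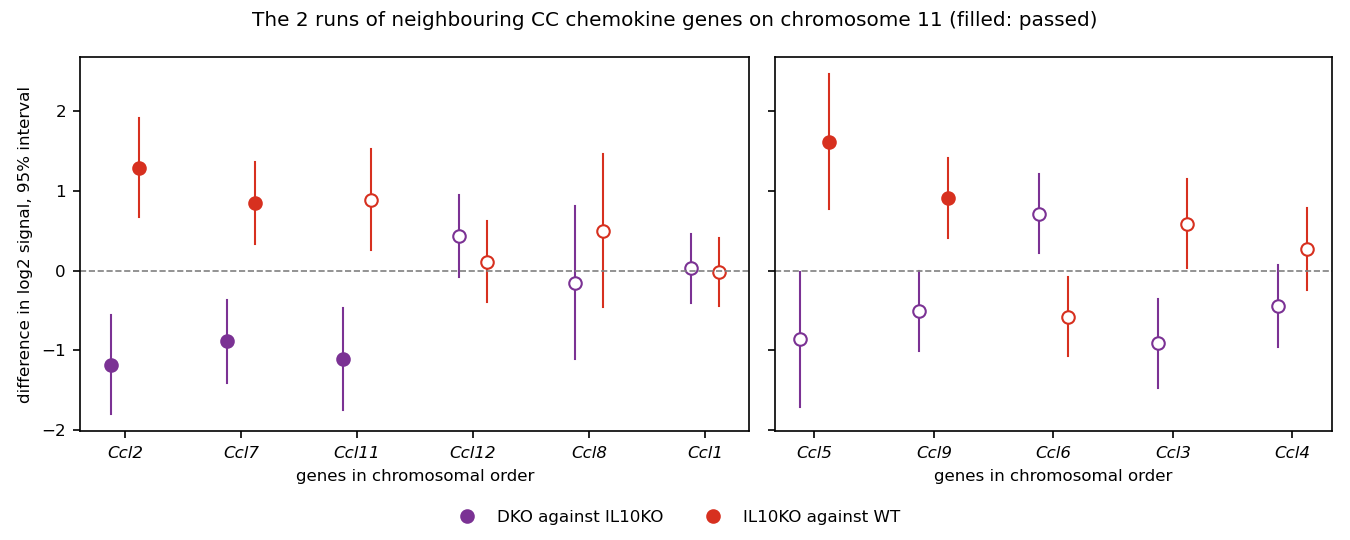
Differences in log2 signal with 95% confidence intervals (vertical axes) for the CC chemokine genes of the 2 runs on chromosome 11, placed in gene order and not to scale of distance (horizontal axis), for DKO against IL10KO and for IL10KO against WT. In the first run Ccl2, Ccl7 and Ccl11 lie at -1.18, -0.89 and -1.11 in DKO against IL10KO while Ccl12 lies at 0.44.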

How the data were processed

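RNA of 12 colon samples was measured on Affymetrix arrays, 1 array each, and grouped by the genotype in the labels. The deposited values are log2 signals, 1 per probe set and array, in a table of 41345 probe sets, which the authors made, per the submitters' processing notes, with Affymetrix Expression Console (version 1.3.1.187). The sources used here give neither background correction nor normalization nor a genome build for the array, and the log2 scale was inferred from the range and the similar medians. No detection calls were given.

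Gene names come from the platform annotation of the probe sets: 23521 carried 1 symbol, 1814 several and 16010 none used here. The brightest probe set stood for each of 22180 genes, 1082 of which had several. Signals were used as deposited and fitted in R 4.3.3 by limma 3.58.1 as 1 mean for each genotype, over all 12 arrays, with 8 residual and 5.56 prior degrees of freedom, 2-sided tests and Benjamini-Hochberg adjustment over all genes. The code was tested on simulated data. The text names all 10 members, the receptors and other ligands that passed or bind a member, up to 3 passing members of each other list by size of difference, and the 3 closest profiles. The members and lists (20 lists, 176 of 191 entries measured) were chosen with earlier results of these data known. Each result was recomputed after quantile normalization or median centring, without the dimmest 33.3% of genes, with probe sets averaged per gene, on the compared genotypes alone, under a trended, robust prior, under gene-by-gene array weights, and with each array left out in turn. Leaving out 3 arrays together was chosen after seeing the data. Promoter sequences are RefSeq's, and entries were found for 5 of the 10 members.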

Additional observations from a re-analysis of the deposited data

Results flagged for a closer look

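Il1a, which encodes interleukin-1 alpha, differed between STING genotypes in its response to loss of interleukin-10, by a test of the difference itself: DKO minus SKO less IL10KO minus WT was -1.80 ± 0.33 (SE, limma adjusted p = 0.0268). Leaving out the library labelled WT replicate 3 gave -1.79 (limma adjusted p = 0.0445). Its log2 signal was 3.31, 3.16 and 3.81 in DKO, 4.65, 5.76 and 5.35 in IL10KO, 3.28, 3.47 and 3.28 in SKO and 3.37, 3.40 and 3.35 in WT.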

How the results depend on the processing

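Of the alternatives to the 50 differences of single chemokines, 904 values kept their direction and side of the threshold, 49 no longer passed, 11 passed where the main value did not, and 26 turned sign, none of them called. In DKO against IL10KO the count of 4 called members was 2 with median centring, 2 with only the genotypes compared (Ccl5 and Ccl11) and 1 with array weights, 5 without the dimmest genes or under a trended, robust prior (both adding Ccl3), and ranged from 0 to 4 over single omissions. In IL10KO against WT the count of 3 was 1 with only the genotypes compared, 2 with median centring or array weights and 4 after quantile normalization (adding Ccl11), and ranged from 0 to 3 over single omissions. In DKO against SKO the count of 0 was 1 (Ccl5) with only the genotypes compared and ranged from 0 to 1 over single omissions. In the difference of effects the count of 0 was 1 (Ccl11) without the 3 arrays left out together, and in SKO against WT it was 0 throughout. Except where given above, no share of all genes called stands beside these counts. The counts therefore do not show whether the chemokines changed beyond a change among all genes. Fits of only 2 genotypes rest on fewer arrays, and the cause of the other changes was not tested. Signs turned with array weights for Ccl20 in SKO against WT (-0.12) and Ccl4 in DKO against SKO (0.094), and with quantile normalization for Ccl28 in IL10KO against WT (0.054). Without the 3 arrays they turned for Ccl20 in SKO against WT (-0.062), Ccl28 in IL10KO against WT (0.091), Ccl4 in DKO against SKO (0.19) and Ccl4 in the difference of effects (0.15). Over single omissions the values that turned ranged in SKO against WT from -0.35 to 0.097 for Ccl2, -0.13 to 0.12 for Ccl20, -0.35 to 0.091 for Ccl4, -0.90 to 0.20 for Ccl5, -0.27 to 0.035 for Ccl7 and -1.04 to 0.011 for Ccl8. They ranged in DKO against SKO from -0.035 to 0.27 for Ccl20, -0.26 to 0.19 for Ccl4 and -0.099 to 0.30 for Ccl7, and in DKO against IL10KO from -0.41 to 0.26 for Ccl8. In IL10KO against WT they ranged from -0.20 to 0.024 for Ccl28 and -0.0082 to 1.04 for Ccl8, and in the difference of effects from -1.06 to 0.044 for Ccl5 and -0.16 to 0.89 for Ccl8. No paired analysis was possible because the labels give the genotypes no shared replicate numbers, the numbers used here being in the order of the samples. With 3 arrays per genotype and no detection calls, small differences of dim probe sets cannot be resolved.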
